A study of Homo sapiens with 2 samples.

Results

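HSC-1 is a line of cutaneous squamous cell carcinoma (cSCC), and the interferon genes IFNB1, IFNL1, IFNL2 and IFNL3 were examined in 1 library of HSC-1 cells transfected with control siRNA (siNC) and 1 library of cells transfected with siRNA against the long noncoding RNA LINP1 (siLINP1). The 4 genes were taken by name from the 44591 genes of the count table. They were chosen by their read counts in these libraries, which differed between siNC and siLINP1, so their fold changes describe the choice and no test was made on them. Both cultures were at about 70% confluency, were kept for 6 h without serum after the transfection reagent and for a further 24 h in medium with 10% serum, and a culture without siRNA was not analysed here. The methods of the study give other transfection conditions for its cSCC cells, and which siRNA oligo against LINP1 was sequenced is not given in the sources used here. Between these libraries, an effect of the oligo itself cannot be told apart from an effect of losing LINP1. Neither was tested.

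Interferons are secreted antiviral proteins. IFNB1 encodes interferon beta, a type I interferon that is read by IFNAR1 and IFNAR2, while IFNL1, IFNL2 and IFNL3 encode the type III or lambda interferons, which are read by IFNLR1 with IL10RB and act mainly on epithelial cells such as keratinocytes. Both kinds are made when a cell senses foreign or misplaced nucleic acid through DDX58 (RIG-I), IFIH1 (MDA5) or a Toll-like receptor, which activates IRF3 and NF-kB, and both receptors signal through kinases of the JAK family to the transcription factor complex ISGF3.

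All 4 interferon transcripts were read more often in the siLINP1 library. Together they held 31 reads in siNC and 461 in siLINP1, a 17.2-fold difference after scaling (95% interval 11.9 to 25.6). Per length, IFNL1 was the most read of them in siLINP1 and IFNL2 the least, while in siNC the intervals of neighbours in the order overlapped. The division of reads between IFNL2 and IFNL3 is uncertain, because they share sequence. Among the other interferon genes, IFNE was read in both libraries and the genes of interferon alpha were nearly without reads. Of 11 listed genes that IRF3 can switch on directly, 10 had their whole interval more than 2-fold higher in siLINP1, against 1.59% of all genes. Several of the 11 also respond to interferon itself. The list of receptors, their kinases and STATs and a separate list of ISGF3-induced genes had medians near that of all genes. The ISGF3 list was written without the genes of the IRF3 list and without RNA sensors such as DDX58 and IFIH1. Of its 37 genes with at least 10 reads, 3 lay wholly beyond 2-fold, all higher, beside 1.59% of all genes that were higher by this measure. The lists were written with earlier results of these data known, and no test compared them.

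The libraries held 18829544 counted reads in siNC and 15383081 in siLINP1. Fold changes were taken after scaling by size factors, with a 95% interval from the split of a gene's reads between the libraries. These intervals, and those of single counts, cover counting error only: with 1 library for each condition there is no spread between cultures to compare with, and a difference is one between these libraries. LINP1 itself had 167 reads in siNC and 23 in siLINP1, which gave a log2 fold change of -2.65 (95% interval -3.35 to -2.02). Over the 19840 genes with at least 10 reads in the pair of libraries the median log2 fold change was -0.02. All 12 squamous markers were read, but unevenly. KRT5 had 32 and 24 reads, TP63 6 and 8, and CDH1 14 and 3 in siNC and siLINP1, while ITGB4 had 5990 and 3962, PERP 1158 and 1398, SFN 264 and 138 and KRT14 243 and 87, and the mesenchymal gene VIM had 61097 and 41992. Bulk RNA cannot tell fewer cells that carry a transcript from less of it in each cell.

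IFNB1 lies on the minus strand of chromosome 9 of hg19, chr9:21077104-21077962 in the count table, and has a single exon. The lambda genes lie together on chromosome 19, IFNL3 at chr19:39734246-39735717 on the minus strand, IFNL2 at chr19:39759157-39760732 on the plus strand and IFNL1 at chr19:39786965-39789312 on the plus strand. The pseudogene IFNL3P1 is at chr19:39727265-39727977 on the minus strand, on the far side of IFNL3. No other annotated gene overlapped any of the 4. The 250 bases before the transcription start are shown here because IRF3 and NF-kB act on this stretch, and because they let the similarity of IFNL2 and IFNL3 be seen. They come from a RefSeq table (GRCh38.p14), and each matched GRCh37 exactly 1 time, at chr9:21077942-21078191 (minus strand) for IFNB1, chr19:39786797-39787046 (plus) for IFNL1, chr19:39758786-39759035 (plus) for IFNL2 and chr19:39735891-39736140 (minus) for the outer of the 2 starts of IFNL3. Capitals mark matches to AANNGAAA, the core of sites for interferon regulatory factors, on either strand.
IFNB1: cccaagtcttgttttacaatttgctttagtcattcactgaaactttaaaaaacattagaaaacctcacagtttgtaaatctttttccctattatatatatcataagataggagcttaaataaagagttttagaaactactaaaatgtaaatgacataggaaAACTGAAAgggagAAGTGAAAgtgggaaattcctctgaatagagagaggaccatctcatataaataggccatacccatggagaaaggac
IFNL1: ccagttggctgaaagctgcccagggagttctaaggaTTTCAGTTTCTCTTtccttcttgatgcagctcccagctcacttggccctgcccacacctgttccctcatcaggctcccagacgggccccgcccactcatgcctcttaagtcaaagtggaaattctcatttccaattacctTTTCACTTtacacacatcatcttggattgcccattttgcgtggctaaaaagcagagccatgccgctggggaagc
IFNL2: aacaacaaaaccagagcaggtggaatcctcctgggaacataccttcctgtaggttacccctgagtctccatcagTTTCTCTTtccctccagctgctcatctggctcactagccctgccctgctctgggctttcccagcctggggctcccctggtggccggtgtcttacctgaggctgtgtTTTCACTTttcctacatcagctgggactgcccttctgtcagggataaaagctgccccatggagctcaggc
IFNL3: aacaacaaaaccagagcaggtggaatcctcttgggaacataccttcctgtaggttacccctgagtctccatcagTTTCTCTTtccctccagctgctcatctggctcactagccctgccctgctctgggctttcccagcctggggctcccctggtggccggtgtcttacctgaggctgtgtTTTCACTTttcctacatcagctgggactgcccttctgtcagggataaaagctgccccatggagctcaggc

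Matches to AANNGAAA were present 2 times before IFNB1, 3 times before IFNL1 and 2 times each before IFNL2 and IFNL3. Of 35116 promoters of the same length, 20.3% held at least 1 match and 4.54% at least 2. A longer IRF element, a pair of GAAA blocks with 2 bases between them, always contains AANNGAAA. It matched 2 times before IFNL1 and 1 time each before IFNL2 and IFNL3, and did not match before IFNB1. This element was found in 3.02% of all promoters. The NF-kB consensus had a match before IFNB1, IFNL2 and IFNL3 and was found in 9.96% of promoters, and TATAAA had a match before IFNB1 and was found in 10.7%. All motifs were searched on both strands. Before IFNB1 the motifs lay close together, with AANNGAAA from -89 to -82 and from -76 to -69 and the NF-kB match from -66 to -57 relative to the start. Before IFNL2 and IFNL3 they lay farther apart, with AANNGAAA from -176 to -169 and from -70 to -63 and the NF-kB match between them, from -110 to -101. The 250 bases of IFNL3 and IFNL2 differed at 1 position, T31C, counted from 1 at the 5′ end with the base of IFNL3 first. The 250 bases before the inner start of IFNL3, chr19:39735647-39735896, held 0 matches to these motifs. A match of letters is a description and not a binding site.

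IFNB1 was read 10 times in siNC and 80 times in siLINP1. Its level in RPKM, the reads per kilobase of the gene length in the table scaled to the total of the library, was 0.618 (95% Poisson interval 0.296 to 1.14) in siNC and 6.05 (4.80 to 7.53) in siLINP1. The intervals were apart. The log2 fold change was 3.21 (95% interval 2.26 to 4.32), which is 9.25-fold.

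IFNL1 had the most reads of the 4 in either library, with 19 in siNC and 322 in siLINP1. Its RPKM level was 1.18 (0.710 to 1.84) in siNC and 24.5 (21.9 to 27.3) in siLINP1. The intervals again did not overlap, and the log2 fold change was 4.29 (3.63 to 5.04), or 19.6-fold. Ranked by the lower end of the interval, IFNL1 stood at place 1 of the 19840 genes, IFNL3 at place 16, IFNB1 at place 41 and IFNL2 at place 74. These places come from the counts that chose the 4 genes, so they describe the choice and test nothing.

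IFNL2 was not detected in siNC, with 0 reads, which allows a level of up to 0.217 RPKM at a limit of 3 reads. In siLINP1 it had 14 reads, or 1.24 RPKM (0.678 to 2.08). Against the limit of 3 reads this is at least 5.40-fold higher in siLINP1, or 2.43 on the log2 scale, a bound that takes the 14 reads as they are. The counting interval of the split of 0 and 14 reads, which takes in the error of the 14, starts at 3.84-fold and has no upper end.

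IFNL3 had 2 reads in siNC and 45 in siLINP1. The RPKM level was 0.159 (0.0193 to 0.576) in siNC and 4.39 (3.20 to 5.88) in siLINP1. The ratio was 26.0, with a wide counting interval of 6.80 to 221, since it rests on 2 reads in siNC. Summed, IFNL2 and IFNL3 had 2 reads in siNC and 59 in siLINP1, which gave a log2 fold change of 5.09 (3.18 to 8.17).

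**Figure D1:**
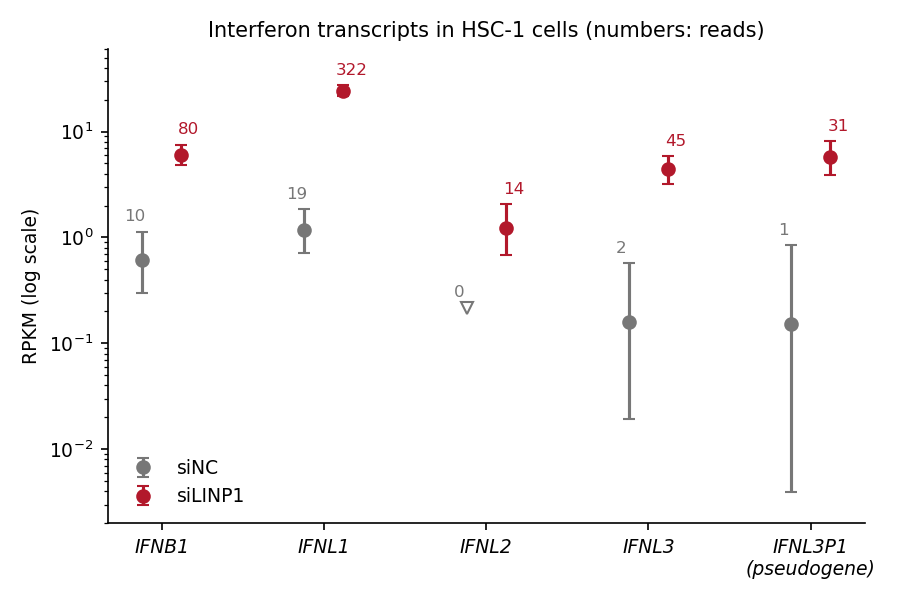
Levels of the 4 interferon genes and the pseudogene IFNL3P1 in the siNC (grey) and siLINP1 (red) libraries, as RPKM on a log axis with 95% Poisson intervals of counting error and the reads printed beside each point. The open triangle is the limit of 0.217 RPKM that 3 reads would give for IFNL2 in siNC; in siLINP1 all 4 genes lie above their siNC interval.

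For each of the 4 genes the whole counting interval lay more than 2-fold above siNC. Over all 19840 genes, 6.74% were more than 2-fold higher and 5.3% more than 2-fold lower, while 1.59% had the whole interval above 2-fold and 0.428% below it. Since this contrast chose the 4 genes, nothing is read from their count. The intervals of the fold changes of IFNB1, IFNL1 and IFNL3 overlapped with one another in every pair. Overlap of separate intervals does not show that folds are alike, and a difference in fold between these genes was not tested.

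In siLINP1 the order of RPKM levels was IFNL1, IFNB1, IFNL3 and IFNL2. IFNL1 stood apart from IFNB1 and IFNL3 from IFNL2, though the division of reads between IFNL3 and IFNL2 is uncertain. The intervals of the neighbours IFNB1 and IFNL3 overlapped. That overlap depends on the length used: per kilobase of merged annotated exons, IFNB1 had 95.4 reads (75.6 to 118.7) and IFNL3 45.5 (33.2 to 60.8), and the intervals were apart. In siNC the order was the same, but every neighbouring pair had overlapping intervals. As a share of the reads of the 4 genes, IFNL1 made up 61.3% (95% exact interval 42.2 to 78.2) of 31 reads in siNC and 69.8% (65.4 to 74.0) of 461 in siLINP1. The share of IFNB1 was 32.3% (16.7 to 51.4) in siNC and 17.4% (14.0 to 21.1) in siLINP1. The intervals overlapped for both genes. Overlap of separate intervals does not decide whether shares differ, and a difference in the mix of interferons was not tested.

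Reads of the lambda genes can be hard to place because the genes are copies of each other. The annotated transcripts of IFNL2 and IFNL3 were identical at 96.0% of 707 aligned bases, and IFNL1 was identical to IFNL2 at 78.0% and to IFNL3 at 79.3%. Of all windows of 75 bases, 22.7% in IFNL2 and 13.1% in IFNL3 were also found in another gene, each in the other of the pair, whereas IFNB1 and IFNL1 shared none. With windows of 50 bases the shares were 37.8% and 31.2%. How reads that match several places were counted is not given in the sources used here, so the division between IFNL2 and IFNL3 is uncertain. Their sum is the safer value, though too low if such reads were left out and too high if they were counted in both genes. The same does not touch the reads of IFNB1 and IFNL1 at these window lengths.

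Of the 19 other interferon genes and pseudogenes, 12 had no read in either library, among them IFNG, the type II interferon of T cells and natural killer cells, and IFNL4. The pseudogene IFNL3P1 had 1 read in siNC and 31 in siLINP1, a ratio of 35.8 with a counting interval of 5.97 to 1461, and shared only 3.10% of its windows of 50 bases and none of 75 with other genes. IFNE, an interferon of the epithelium of the reproductive tract, had 12 and 26 reads, which gave a log2 fold change of 1.32 (0.29 to 2.45). The others were at the edge of detection. IFNA1 had 0 reads in siNC and 2 in siLINP1, IFNW1 had 0 and 1, and IFNA8, IFNA21 and the keratinocyte interferon IFNK had 1 and 0 each.

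Protein-coding genes near the lambda cluster that had at least 10 reads lay near no change. The pseudogene IFNL3P1, beside IFNL3, was read more often in siLINP1, as given above. Of 10 other protein-coding genes whose span starts within 100 kb of 1 of the 4, 4 had at least 10 reads, all beside the lambda cluster. LRFN1, a synaptic adhesion protein, had 318 reads in siNC and 233 in siLINP1, which gave a log2 fold change of -0.24 (-0.49 to 0.01). SAMD4B had 2695 and 2235 reads, PAF1, of the elongation complex of that name, had 1921 and 1737, and MED29, a Mediator subunit, had 1608 and 1374. These 4 log2 fold changes ran from -0.24 to 0.06, and none had its interval beyond 2-fold. The other 6 were hardly read. HACD4 had 3 reads in each library, GMFG 4 and 3, NCCRP1 1 and 0, and SYCN none, and IFNW1 and IFNA21 are given above.

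**Figure D2:**
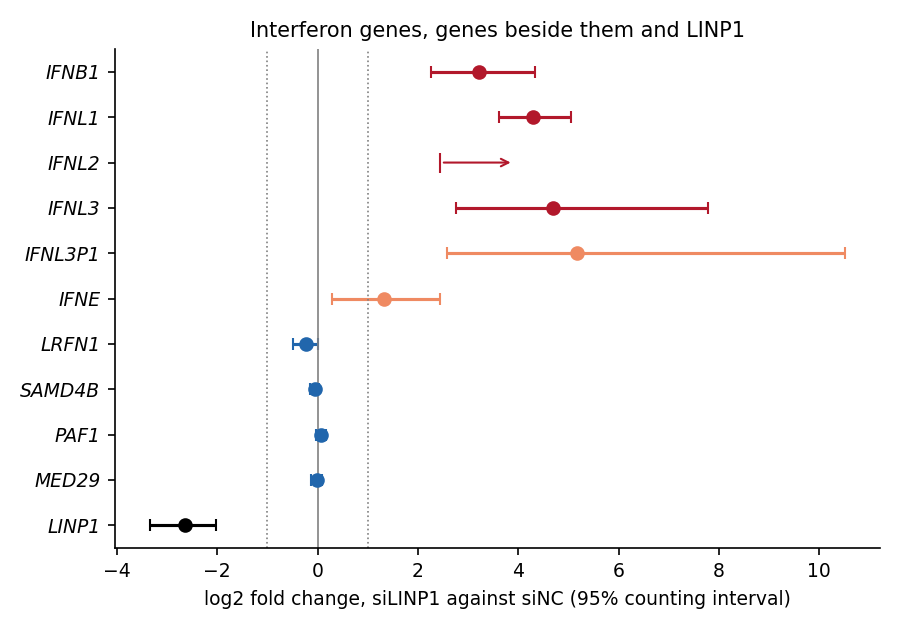
Log2 fold change of siLINP1 against siNC with 95% intervals of counting error for the 4 interferon genes (red), IFNL3P1 and IFNE (orange), the 4 protein-coding neighbours with at least 10 reads (blue) and LINP1 (black). The bar and arrow of IFNL2 mark a lower bound, dotted lines mark 2-fold, and the neighbours lie between -0.24 and 0.06.

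Genes that sense nucleic acid or carry the signal to the interferon promoters were split. Of 28 in the list, 25 had at least 10 reads, with a median log2 fold change of 0.16. For 12 the whole interval lay above no change and for 6 below it, and 3 lay wholly more than 2-fold higher. Over all genes, 23.0% lay wholly above no change, 25.6% below it and 1.59% more than 2-fold higher. These 3 were the cytoplasmic RNA sensors of the RIG-I family. IFIH1 had 249 reads in siNC and 1466 in siLINP1, which gave a log2 fold change of 2.77 (2.57 to 2.97). DDX58 had 384 and 1175 reads, which gave a log2 fold change of 1.82 (1.66 to 1.99). DHX58 (LGP2), which modulates the other two, had 284 and 659 reads, which gave a log2 fold change of 1.42 (1.22 to 1.63). These sensors are themselves known to be switched on by interferon. The DNA sensing adaptor TMEM173 (STING) was at the lower end of the list, with 1213 and 588 reads and a log2 fold change of -0.84 (-0.98 to -0.69). Its partner MB21D1 (cGAS), which makes the messenger that STING reads, had 1 and 2 reads. The adaptor MAVS had 5094 and 4077 reads, the kinase TBK1 825 and 721, and the factor IRF3 1521 and 1155, with log2 fold changes of -0.11, 0.02 and -0.19. The values of MB21D1, MAVS, TBK1 and IRF3 are given for their roles and were named after they had been seen. The same holds for 4 further genes. Of the 12 above no change, IRF1 had a log2 fold change of 0.94 (0.83 to 1.05), TRAF3 0.89 (0.75 to 1.04) and JUN 0.85 (0.77 to 0.94). Of the 6 below it, the Toll-like receptor TLR3 had 113 and 57 reads and -0.78 (-1.26 to -0.31).

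The genes through which interferons act on a cell were all read. All 9 had at least 10 reads, and their median log2 fold change was -0.05. None lay wholly beyond 2-fold. The list ran from IL10RB, the accessory chain of the lambda receptor, with 649 reads in siNC and 415 in siLINP1 and a log2 fold change of -0.44 (-0.62 to -0.26), to STAT2, with 892 and 866 reads and a log2 fold change of 0.17 (0.03 to 0.30). IFNLR1, the chain that recognises the lambda interferons and was named after its values had been seen, had 188 and 138 reads, which gave a log2 fold change of -0.24 (-0.56 to 0.09).

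The list of antiviral genes that IRF3 can induce without interferon had the highest median of the 5 pathway lists. The median log2 fold change of its 11 genes was 2.18, against -0.02 over all genes, and 10 of the 11 lay wholly above 2-fold, against 1.59% of all genes. IFIT2, which binds foreign RNA, had 692 reads in siNC and 7303 in siLINP1, which gave a log2 fold change of 3.61 (3.50 to 3.72). RSAD2 (viperin), an antiviral enzyme, had 246 and 2204 reads, which gave a log2 fold change of 3.37 (3.18 to 3.57). CCL5, a chemokine that draws T cells, had 340 and 2000 reads (2.77 on the log2 scale), OASL 508 and 2610 (2.57), and IFIT1 314 and 1451 (2.42). The ubiquitin-like modifier ISG15 had 533 and 2089 reads (2.18), the RNA-binding ZC3HAV1 1687 and 6171 (2.08), and HERC5, the ligase for ISG15, 74 and 252 (1.98). IFIT3 had 771 and 2469 reads (1.89) and the apoptosis gene PMAIP1 (NOXA) 1582 and 3953 (1.53). The exception was the chemokine CXCL10, named after its values had been seen, with 18 and 28 reads and a log2 fold change of 0.85 (-0.06 to 1.79). Several of these genes also respond to interferon itself, and the list was written with earlier results of these data known.

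Genes listed as induced through ISGF3, a list without the genes of the IRF3 list and the RNA sensors above, lay on either side of no change. Of 38, 37 had at least 10 reads, with a median log2 fold change of -0.02, the same to 2 decimals as that of all genes. For 10 the whole interval was above no change and for 11 below it, and over all genes these shares were 23.0% and 25.6%. The genes wholly beyond 2-fold were 3 of the 37, all higher, beside 1.59% of all genes that were higher and 0.428% that were lower by this measure. CMPK2, a mitochondrial nucleotide kinase, had 44 reads in siNC and 193 in siLINP1, which gave a log2 fold change of 2.34 (1.86 to 2.85). DDX60, a helicase, had 338 and 1068 reads, which gave a log2 fold change of 1.87 (1.69 to 2.05). IFI44 had 413 and 902 reads, which gave a log2 fold change of 1.34 (1.17 to 1.51). The classical interferon-stimulated genes MX1, OAS1 and IFITM3, and also TAP1 and HERC6, were picked with their values known. Among the 10 above no change, MX1 had a log2 fold change of 0.44 (0.16 to 0.71). TAP1 had 1.06 (0.91 to 1.20) and HERC6 0.75 (0.46 to 1.04). Among the 11 below it, OAS1 had -0.42 (-0.79 to -0.06) and IFITM3 -0.40 (-0.46 to -0.34). No test compared this list with the IRF3 list, since the lists were written with earlier results known.

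Genes that restrain the response or degrade its transcripts were divided. All 17 had at least 10 reads, with a median log2 fold change of 0.09. For 8 the interval lay above no change and for 6 below it, and 4 lay wholly more than 2-fold higher, beside 23.0%, 25.6% and 1.59% of all genes. ATF3, a stress factor that can repress IFNB1, had 1197 reads in siNC and 4929 in siLINP1, which gave a log2 fold change of 2.25 (2.16 to 2.34). TNFAIP3 (A20), a brake on NF-kB, had 718 and 2006 reads, which gave a log2 fold change of 1.69 (1.57 to 1.82), and the deubiquitinase CYLD 536 and 1370 reads, with 1.56 (1.42 to 1.71) on the same scale. ZFP36 (tristetraprolin), which binds AU-rich elements and marks transcripts for decay, had 1080 and 2711 reads, which gave a log2 fold change of 1.54 (1.44 to 1.64). The phosphatase PTPN6 was lowest, with 27 and 8 reads and a log2 fold change of -1.55 (-2.89 to -0.37).

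**Figure D3:**
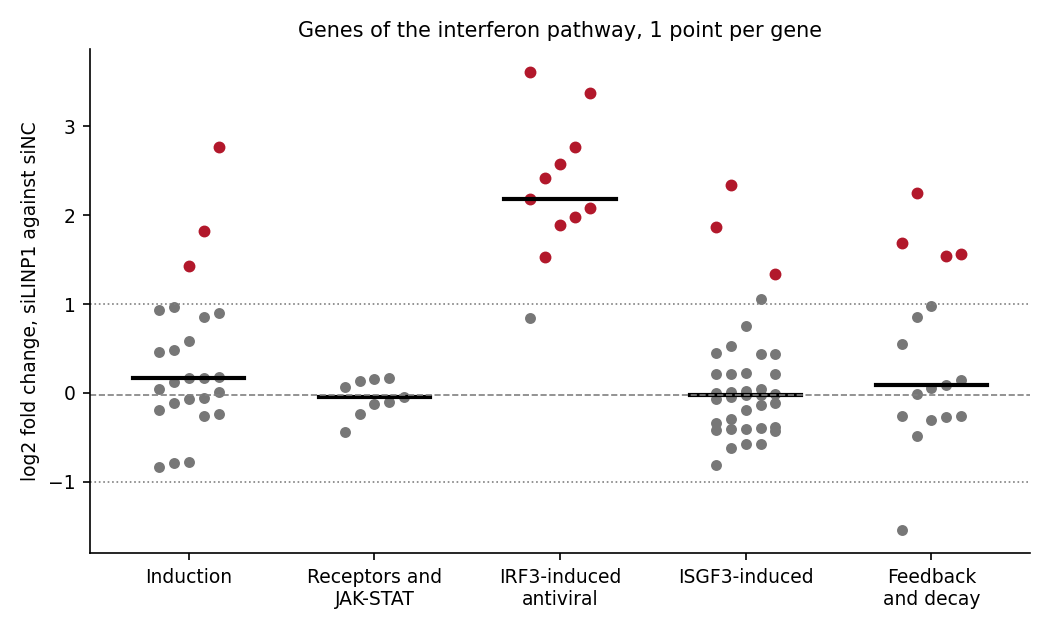
Log2 fold change of siLINP1 against siNC for each gene with at least 10 reads in 5 lists of the interferon pathway. Red points have their whole 95% counting interval beyond 2-fold (dotted lines), black bars are list medians (0.16, -0.05, 2.18, -0.02 and 0.09 from left to right) and the dashed line is the median of all genes.

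Reads from blood cells, which can make interferons, were looked for among marker genes. Of 10 white blood cell markers, CD3E and MS4A1 had 0 reads in both libraries and PTPRC (CD45) had 1 read in siNC and 4 in siLINP1. Their summed level in CPM, the reads scaled to a common library total, was 258 in siNC and 221 in siLINP1, most of it from CD68 and HLA-DRA. Of 6 markers of plasmacytoid dendritic cells, a specialised source of type I interferon, CLEC4C had no read and LILRA4 had 0 and 2, while GZMB had 5 and 10, IL3RA 51 and 39, and TCF4, which many other cells express, 398 and 345. The sum was 24.8 and 25.7 CPM, most of it from TCF4. Within both lists, the genes wholly beyond 2-fold were ITGAM, higher in siLINP1, and SPIB, with 13 reads in siNC and 0 in siLINP1. The 12 squamous markers summed to 416 and 374 CPM, most of it from ITGB4. The 8 mesenchymal markers summed to 5150 and 4168 CPM, most of it from VIM and SPARC. Among the rest of the mesenchymal list, FN1 had 1151 and 753 reads, PDGFRB 369 and 172 and COL1A1 190 and 79. COL1A2 had 4 and 8 reads, COL3A1 8 and 6, and THY1 1 and 0. No gene of either list was wholly beyond 2-fold.

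The protein-coding genes whose fold change was nearest to that of the 4 interferons summed (4.10 on the log2 scale) were taken from 12598 with at least 50 reads. In order of likeness they were ITGAM, an integrin chain, with 12 reads in siNC and 148 in siLINP1 and a log2 fold change of 3.83, LOC100134391, with 3 and 56 reads and 4.43, IFIT2, with 3.61, THSD7A, with 8 and 80 reads and 3.53, and the early response factor EGR4, with 5 and 48 reads and 3.47. The likeness is the difference between log2 fold changes over 2 libraries, 0.27 for ITGAM and 0.63 for EGR4.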

How the data were processed

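Total RNA of HSC-1 cells was sequenced on an Illumina HiSeq instrument, aligned to GRCh37/hg19 with Tophat2 and counted with HTSeq, per the study's methods. The submitters' processing notes also name HISAT2, HISAT and Bowtie2. Versions, gene annotation, strand and counting mode are not given in the sources used here. The values that the authors deposited are raw read counts per gene, gene lengths and RPKM. Recomputed from count, length and library total, RPKM matched the deposited values within a relative difference of 2.8e-14. A further 12 columns of per-sample values were not used.

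Size factors by the median of ratios (1.08 for siNC, 0.930 for siLINP1) scaled the counts, and medians and counts of genes were taken over those with at least 10 reads in the pair of libraries. Intervals are 95% exact Poisson intervals for a level and Clopper-Pearson bounds on the split of reads for a fold. A fold against 0 reads was taken against 3 reads. No p-value was computed. Transcript sequences came from GENCODE 44 on GRCh37 and promoters from RefSeq. Intervals were tried on simulated counts that held only the counting error they assume, so this says nothing about the spread between cultures.

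The 4 genes, the lists of genes and the markers were chosen with earlier results of these data known. The genes named were the 4, other interferon genes with a read, list genes wholly beyond 2-fold or at the ends of 3 lists, protein-coding genes within 100 kb, the 5 with the nearest fold change, and LINP1. TMM factors came from edgeR 4.0.16 in R 4.3.3, and the rest from Python 3.11.15 with scipy 1.17.1, numpy 2.4.6, pandas 2.3.3, Biopython 1.88 and matplotlib 3.10.9. The alternatives were scaling by total count or TMM, other size factors, pseudocounts of 1 and 5, read minimums of 1 and 100, IFNL3P1 added to IFNL2 and IFNL3, and other lengths. Values of some single genes of the lists are not reported here.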

Additional observations from a re-analysis of the deposited data

How the results depend on the processing

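No paired analysis was possible because each condition had 1 library, and no library could be left out. Of 62 alternative values, 59 were called the same. For a fold this meant within the counting interval of the value reported, and for a list median within its interval. For a count it meant within 1.5 times, and for the order of levels no change of place. The other scalings moved every log2 fold change by up to 0.08. That is little beside the counting intervals of the 4 genes, so staying within them was a weak check. The log2 fold change ran from 2.67 to 3.29 for IFNB1, 3.95 to 4.37 for IFNL1, 2.0 to 4.0 for IFNL2, 2.96 to 4.78 for IFNL3, 3.89 to 4.19 for the 4 summed and 3.32 to 5.17 for IFNL2 and IFNL3 summed, each lowest with a pseudocount of 5. The count of genes more than 2-fold higher was 2522 with a minimum of 1 read and 362 with a minimum of 100, against 1338, and the count of genes wholly above 2-fold was 188 with a minimum of 100, against 316. Fewer or more genes enter under these minimums. With scaling by total count, the medians of the receptor and ISGF3 lists changed sign, to 0.03 and 0.06. The order of levels in siLINP1 held with merged exon lengths and, an alternative added after seeing the data, with windows of 75 bases found only in the gene, though with merged exon lengths the intervals of IFNB1 and IFNL3 no longer overlapped. With 0 to 19 reads of each interferon gene in siNC, depth limits the size of each fold.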

Other observations

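The 4 interferon genes differ in gene structure and share short 3′ ends rich in a decay motif. IFNB1 has 1 exon, as 5.47% of 19894 annotated protein-coding genes do, and the canonical transcripts of IFNL1, IFNL2 and IFNL3 have 5, 6 and 5. The pentamer ATTTA, the core of AU-rich elements that speed the decay of many cytokine transcripts, occurred 2 times in the 202 bases past the stop codon of IFNB1, 3 times in the 157 of IFNL1, 3 times in the 175 of IFNL2 and 2 times in the 79 of IFNL3. These are 9.90, 19.1, 17.1 and 25.3 per kb, against a median of 1.51 per kb over 19403 coding genes. In short 3′ ends such a density rests on few matches. Transcript stability was not measured, and a link between these matches and the read counts was not tested.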
